A study of Drosophila melanogaster with 2 samples.

Results

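The genes described here are 10 Drosophila melanogaster genes for HMG-box proteins: the 7 Sox genes SoxN, D (Dichaete), Sox14, Sox15, Sox21a, Sox102F and Sox100B, and the 3 genes Dsp1, HmgD and HmgZ, which encode abundant chromosomal HMG proteins. They were listed by name among 13968 protein-coding genes, and each was given the span of its annotated gene and the 5 kb upstream of its start as a window. Whole embryos of the strain bbx-GFP, collected from 0 to 24 h, gave 2 biological replicates of a single group in which the bbx protein (bobby sox, itself an HMG-box protein) carries an eGFP tag, and chromatin was precipitated with an anti-GFP antibody (the antibody label itself reads bbx). The labels describe a transgene insertion and do not name the promoter that drives the tagged gene. A whole embryo of this age range mixes every cell type and stage, and no untagged sample was used here.

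An HMG box is a fold that binds the minor groove and bends DNA. In Sox proteins and in TCF the box recognises short sequences with a core such as ACAATG or ACAAAG. In Dsp1, HmgD and HmgZ it binds DNA with little regard to sequence. Fly Sox proteins act in the nervous system, the gut, sense organs and the testis, and HmgD is abundant in chromatin of the early embryo.

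A peak is a stretch of enriched reads, its summit is the position of its highest signal, and its pooled signal is the authors' enrichment value in the reads of both replicates together. Each peak also has a signal in each replicate, given in a first and a second column whose replicate numbers are not stated. At Sox14, Sox15, Dsp1 and Sox102F the strongest signal in the separate peak list of replicate 1 equals the first-column value. That in the list of replicate 2 equals the second-column value. The columns and the separate lists are therefore not independent observations. The scaling of the pooled signal and of the replicate columns is not stated, so each is compared only within itself. The conservative set held 4753 peaks reproducible at an irreproducible discovery rate (IDR) of at most 0.01, with a median pooled signal of 105, and 7371 of 103632 ranked peaks had an IDR of at most 0.05. The deposited lists give no read totals, so the depth behind each value is unknown. With 1 group and 2 replicates there is no comparison between conditions, and the gene counts below are descriptions without a test.

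Of the 10 genes, 9 had a conservative summit in their window, and Sox21a had none. All 3 abundant HMG protein genes and 6 of 7 Sox genes were among the 9. Over all protein-coding genes the share with a conservative summit was 45.2%. Longer windows held a summit more often: the share was 55.3% in the fifth of genes with windows of 7.84 to 11.5 kb, where SoxN, D, Sox14 and Sox21a fall, and 58.7% in the fifth with the longest windows, where the other 6 members fall. With ranked peaks at an IDR of at most 0.05 the same 9 genes were counted, beside 54.2% of protein-coding genes. Counting only summits at most 500 bp from the gene's own transcription start sites (TSSs), the number was 6 of 10, namely SoxN, D, Sox14, Sox102F, Dsp1 and HmgZ, beside 30.8% of protein-coding genes. That share is not matched for window length or number of start sites, and the Dsp1 summit lay nearer to a start of another gene, CG9921.

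**Figure D1:**
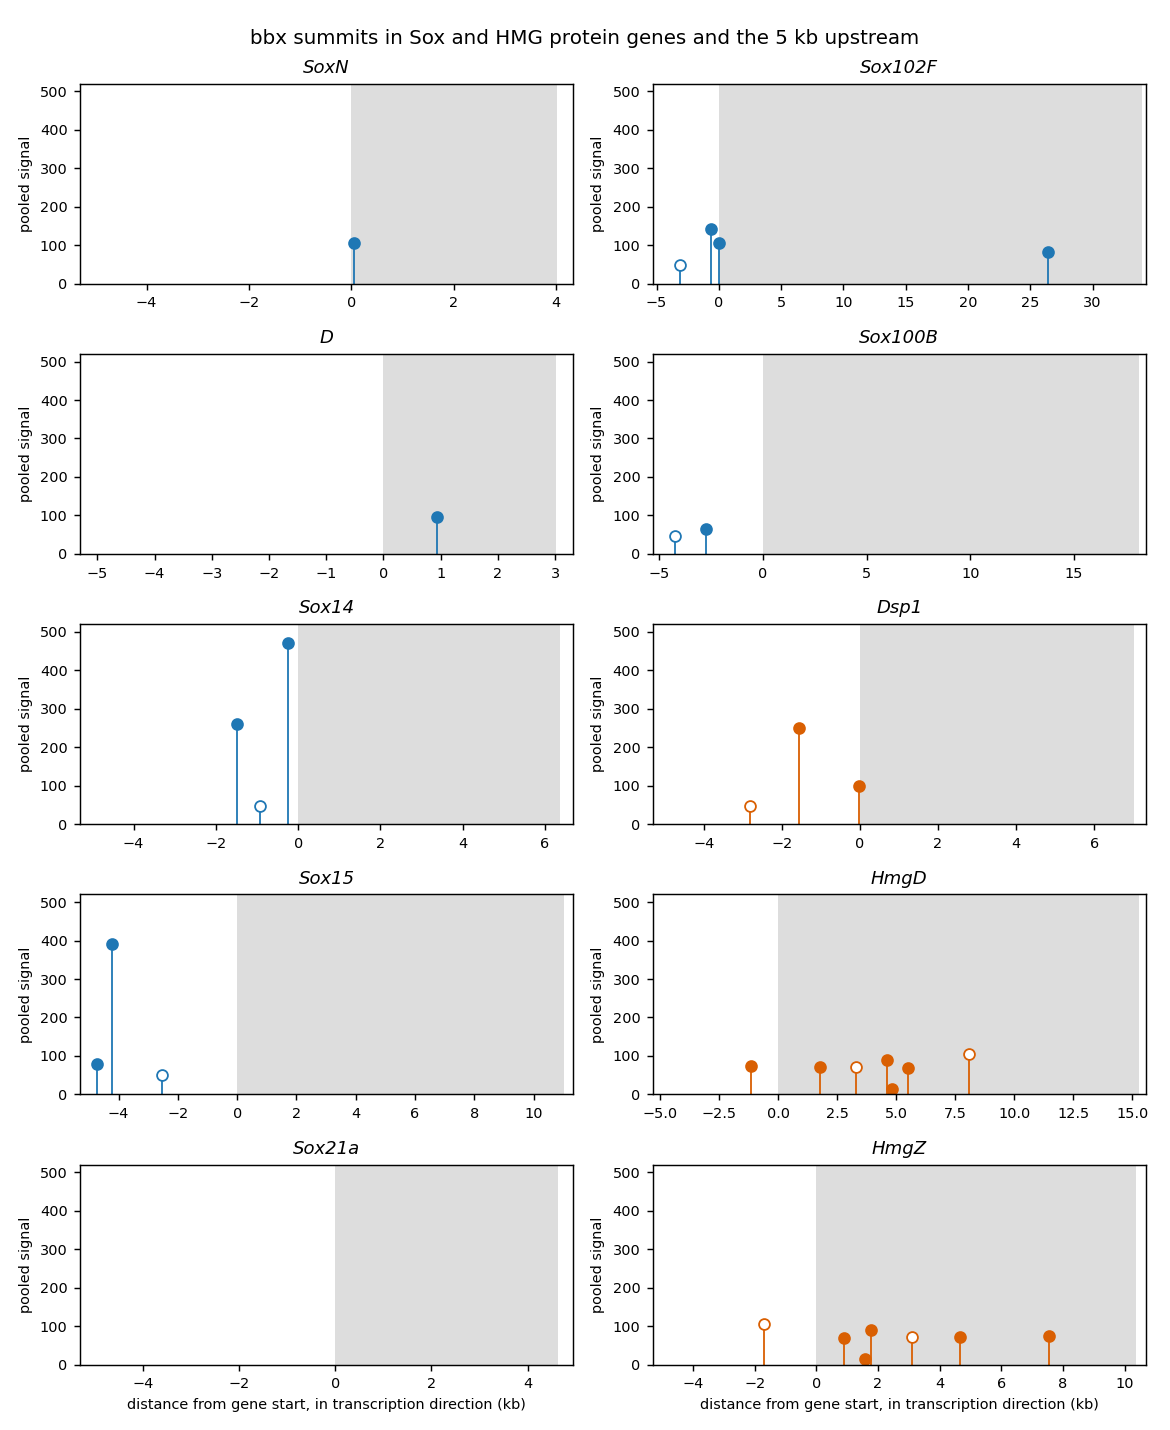
Pooled signal (vertical axis) of each summit against its distance from the gene start in kb (horizontal axis, in the direction of transcription) for the 10 genes; the grey band is the gene, filled circles are conservative summits and open circles are ranked summits at an IDR of at most 0.05 that are not in the conservative set. The tallest summits, at Sox14, Sox15 and Dsp1, lie upstream of the gene, and the HmgD and HmgZ panels show the same summits seen from opposite strands.

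The windows of the 9 genes held 17 distinct conservative summits, with pooled signals from 13.5 to 470.2 and a median of 96.4. Of these summits, 5 lay above the median of the whole set, 105, and 12 at or below it. By position, 9 were within 500 bp of a TSS of any gene (52.9%), 5 were in introns and 3 were intergenic, while 82.8% of all conservative summits were within 500 bp of a TSS. The nearest TSS was that of a member for 11 summits, whose median signal was 89.4, and that of another gene for 6, whose median was 175.

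The SoxB genes SoxN and D, both known for their roles in the neuroectoderm, each carried a single peak at their own start, of middling strength. SoxN (FBgn0029123; 2L, 8825645 to 8829670, plus strand) had a peak from 8825510 to 8825865 with its summit 43 bp into the gene and a pooled signal of 105, at percentile 49.9 of the conservative set. The replicate columns gave 41.5 and 53.8, a mean of 47.7 ± 8.70 (SD, n = 2). In the thresholded list of each replicate on its own, the SoxN peak was found in replicate 2 and not in replicate 1. The stretch of 100 bp to either side of the summit had a GC content of 61.2%, against a median of 43.3% over all conservative summits. Most of that window is 5′ UTR, and the 57 bases just before the start site are shown because they are the promoter side of the peak (chr2L:8825588-8825644, plus strand, release 6 of the genome; none of the motifs searched is in them, so there are no capitals).

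SoxN promoter side: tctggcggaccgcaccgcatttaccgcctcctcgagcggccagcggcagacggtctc

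D (FBgn0000411; 3L, 14175610 to 14178620, minus strand), which also acts in segmentation of the early embryo, had a pooled signal of 96.4 at a peak from 14177497 to 14177852. D has 2 annotated start sites, and the summit lay 138 bp upstream of the inner one and 945 bp downstream of the outer one. The replicate columns gave 51.1 and 48.4, a mean of 49.8 ± 1.91 (SD, n = 2). These are close to each other, yet the peak was in the thresholded list of replicate 1 and not in that of replicate 2. The window of the D summit held the Sox-type core ACAATG, 82 bp from the summit, and the GAGA element GAGAGAG, 16 bp from it.

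Sox21a, a SoxB gene known from adult intestinal stem cells, had no conservative summit and none at an IDR of at most 0.05. Its window on 3L (gene 14103481 to 14108118, minus strand, FBgn0036411) held 10 ranked peaks. The one with the lowest IDR, 0.286, lay at position -1783 bp from the start, upstream of it, with a pooled signal of 25.1 and replicate signals of 16.3 and 14.5. The highest pooled signal of any ranked peak in that window was 50.4. Sox21a, Sox21b and D lie next to each other in 75.1 kb of 3L, and in that whole stretch the D peak was the single conservative summit. A second ranked summit at an IDR of at most 0.05 lay in an intron of Sox21b, with a pooled signal of 51.9. Binding at Sox21a was thus not detected here, and since the depth is unknown its absence cannot be concluded.

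Sox102F, the fly SoxD gene on the small chromosome 4 (FBgn0039938; 800436 to 834393, minus strand), had 3 conservative summits, and all 3 had a Sox102F start site as their nearest TSS. The strongest, with a pooled signal of 143 (4, 834850 to 835205), lay 635 bp upstream of the outermost start. Its replicate signals were 62.0 and 83.0, a mean of 72.5 ± 14.9 (SD, n = 2), and it was in the thresholded list of both replicates. A second summit lay 25 bp into the gene with a pooled signal of 105 and replicate signals of 35.0 and 63.3 (49.2 ± 20.01, SD, n = 2). The remaining summit was in an intron, 600 bp upstream of an inner start, with a pooled signal of 82.9 and replicate signals of 51.8 and 30.3 (41.0 ± 15.2, SD, n = 2). The second replicate column was the higher one at the outer pair of summits and the first column at the inner one. In the separate lists the summit at the start was found in replicate 2 alone and the intronic one in replicate 1 alone. A further ranked summit, at an IDR of 0.029, lay 3119 bp upstream with a pooled signal of 48.1.

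The sequences of the upstream and the intronic peak show the DNA away from an annotated start on the strand of Sox102F, with the summit at base 101. The capitals mark the CGATA match (read as TATCG on this strand) in the first and the GAGA element in the second (release 6 of the genome, chr4:834928-835128 and chr4:807847-808047, minus strand).

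Sox102F upstream peak: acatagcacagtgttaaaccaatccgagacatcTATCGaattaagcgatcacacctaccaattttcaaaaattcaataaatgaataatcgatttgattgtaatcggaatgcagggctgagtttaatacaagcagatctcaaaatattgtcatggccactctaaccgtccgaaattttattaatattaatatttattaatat

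Sox102F intronic peak: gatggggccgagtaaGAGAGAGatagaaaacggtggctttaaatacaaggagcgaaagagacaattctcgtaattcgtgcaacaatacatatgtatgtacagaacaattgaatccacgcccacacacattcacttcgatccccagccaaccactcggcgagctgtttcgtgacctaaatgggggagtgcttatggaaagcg

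The upstream stretch had a GC content of 31.3% and the intronic one 46.8%.

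Sox100B, the SoxE gene known from testis development, had the weakest strongest peak of the 9 genes. Sox100B spans 31065253 to 31083407 of 3R, plus strand (FBgn0024288), and its summit lay 2722 bp upstream of the start, with a pooled signal of 63.4 at percentile 15.1 of the conservative set. The replicate signals were 28.9 and 33.5 (31.2 ± 3.25, SD, n = 2), and neither replicate's own thresholded list held the peak. The nearest TSS, 1321 bp away, was that of dco, the casein kinase gene discs overgrown, which is transcribed in the opposite direction. A ranked summit at an IDR of 0.0241 with a pooled signal of 47.1 lay 217 bp into dco. No summit of either set lay inside Sox100B. The sequence of the conservative peak is shown because it lies in the space between the divergent genes (chr3R:31062431-31062631, plus strand, release 6 of the genome). The capitals mark its TCF-type core ACAAAG, and base 101 is the summit.

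Sox100B upstream peak: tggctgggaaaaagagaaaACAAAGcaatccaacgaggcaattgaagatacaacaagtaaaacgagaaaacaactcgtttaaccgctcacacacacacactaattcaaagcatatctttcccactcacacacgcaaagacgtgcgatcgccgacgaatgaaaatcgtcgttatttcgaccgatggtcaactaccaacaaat

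The members on the other chromosome arms included those with the highest signal. Sox14, a SoxC gene that responds to ecdysone and acts in the pruning of neurons at metamorphosis, had the strongest peak of the 10 genes.

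Sox14 (FBgn0005612) spans 23978801 to 23985177 of 2R, plus strand. Its strongest peak, from 23978440 to 23978674, had its summit 237 bp upstream of the first start, a pooled signal of 470.2 at percentile 96.4, and replicate signals of 223 and 233 (228 ± 6.97, SD, n = 2). A second peak in its window had a pooled signal of 260.4 and replicate signals of 149 and 116 (133 ± 23.5, SD, n = 2). That summit was 1487 bp upstream of Sox14 but 59 bp upstream of PPP1R15, a gene for a regulatory subunit of the phosphatase that acts on eIF2alpha, which is transcribed away from Sox14. Both peaks were in the thresholded list of each replicate. The window of the PPP1R15 summit held 2 copies of the DNA replication-related element (DRE) TATCGATA, 69 and 33 bp from the summit, while that of the Sox14 summit held none of the motifs searched. Between them a ranked summit with a pooled signal of 47.9 had an IDR of 0.0326.

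Sox15, a SoxF gene known from wing and sense organ development, counted among the 9 genes through peaks at and just upstream of the start of its neighbour. Sox15 spans 14201390 to 14212413 of 2R, minus strand (FBgn0005613), and no summit lay inside it. The strongest peak in its window had a pooled signal of 390.0 and replicate signals of 226 and 169 (198 ± 40.4, SD, n = 2), with its summit 4237 bp upstream of Sox15 and 23 bp upstream of RpS23, which encodes a protein of the small ribosomal subunit. A second summit, 4729 bp upstream of Sox15 and 515 bp upstream of RpS23, had a pooled signal of 78.4 and replicate signals of 47.5 and 34.4 (41.0 ± 9.27, SD, n = 2). The stronger was in both replicates' own lists and the weaker in that of replicate 1 alone. A ranked summit 2528 bp upstream of Sox15, at an IDR of 0.0366, had a pooled signal of 49.4 and replicate signals of 44.8 and 20.9. The window of the stronger summit held 3 CGATA matches and the core of motif 1, GGTCACAC, an element of many fly promoters. Another summit upstream of RpS23 lay just outside the window, 5592 bp from Sox15, with a pooled signal of 75.6, and Sox15 had none with a window of 1 kb.

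Dsp1, an HMGB-type protein that works with Dorsal in repression and with Polycomb proteins, had a peak at its own divergent promoter and a stronger one farther upstream. Dsp1 (FBgn0278608) spans 16333612 to 16340624 of chromosome X, plus strand. The summit 21 bp upstream of the first Dsp1 start had a pooled signal of 99.8 and replicate signals of 53.0 and 38.0 (45.5 ± 10.6, SD, n = 2). The same summit lay 9 bp into CG9921, which starts beside Dsp1 and runs the other way, so a peak at this position cannot be given to either gene alone. The stronger summit, 1561 bp upstream of Dsp1, was 3 bp from another start of CG9921 and had a pooled signal of 250.3 with replicate signals of 126 and 132 (129 ± 3.68, SD, n = 2). It was in both replicates' own lists, and the weaker one was in that of replicate 1 alone. The body of Dsp1 held no summit at an IDR of at most 0.05.

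HmgD and HmgZ overlap by 6404 bp on opposite strands of 2R, so both windows held the same 5 conservative summits and these genes are not independent of each other. HmgD (FBgn0004362) runs from 21701458 to 21716727 on the plus strand and HmgZ (FBgn0010228) from 21697488 to 21707861 on the minus strand. Both encode small proteins with a single HMG box. The strongest summit, with a pooled signal of 89.4 and replicate signals of 62.1 and 38.0 (50.1 ± 17.1, SD, n = 2), lay in introns 1593 bp upstream of an inner HmgZ start. A neighbouring summit had the same replicate values and a pooled signal of 13.5, since their peaks overlap, and merging overlapping peaks left 4. The summit nearest to a start lay 388 bp upstream of an HmgZ start, with a pooled signal of 72.1 and replicate signals of 41.6 and 35.0 (38.3 ± 4.68, SD, n = 2). The summit 1137 bp upstream of HmgD had 74.3 in pooled reads (replicate mean 34.9 ± 8.13, SD, n = 2), and that 886 bp into HmgZ had 69.0 (32.0 ± 8.004, SD, n = 2). The first replicate column was the higher one at all 5 of these summits, beside 74.6% of all conservative peaks. The overlapping peaks share their replicate values, so the 5 are not separate observations. None lay within 500 bp of an HmgD start.

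The number of summits at HmgD and HmgZ, with overlapping peaks counted separately, was high among the genes: 5 or more were found for 96 protein-coding genes, or 0.687% of all and 2.65% of the fifth with the longest windows. With overlapping peaks merged, HmgD and HmgZ had 4 and fell outside this class, and the matching shares for merged peaks are not given here. The signals of these 5 summits were all below the median of the conservative set. None of the 5 was in the thresholded lists of both replicates, while 3 were in that of replicate 1 alone and 2 in neither. The list of replicate 1 is the longer one, with 4626 peaks against 3332. The summit with the highest pooled signal in the shared window, 106, was not in the conservative set. It lay 46 bp into the non-coding RNA gene lncRNA:CR44749 with replicate signals of 91.3 and 21.9 and an IDR of 0.0452, the closest of all the members' summits to the bound of 0.05. On the far side of the bound, the lowest IDR was 0.0564 at Sox15, for a peak with a pooled signal of 12.4.

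**Figure D2:**
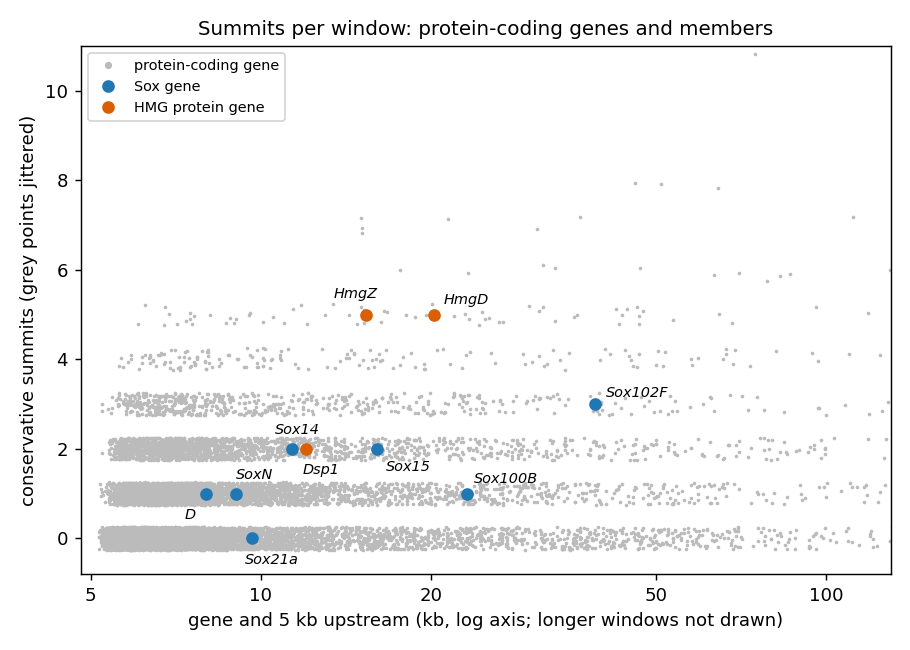
Conservative summits per window (vertical axis) against the length of the gene and its 5 kb upstream in kb (horizontal log axis) for protein-coding genes (grey, jittered), Sox genes (blue) and HMG protein genes (orange); 51 windows longer than the axis and 2 windows with more than 11 summits are not drawn. HmgD and HmgZ, with 5 shared summits, stand in the sparse upper rows, and the other members lie between 0 and 3.

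In the conservative set HmgD and HmgZ had more summits per kb of window than any Sox gene, with lower signals than most Sox summits. Dsp1 did not follow them: its 0.166 per kb lay below the 0.176 of Sox14, and its stronger peak exceeded all Sox peaks but 3. The Sox windows held 10 summits at a median of 0.111 per kb over the genes and a median pooled signal of 105, and the HMG windows held 7 distinct summits at a median of 0.247 per kb and a median pooled signal of 74.3. The mean over all protein-coding windows was 0.0807 per kb, and the median was 0. Over the other HMG-box genes described below the range was 0 to 0.463 per kb, with a median of 0.040. Among them, bbx at 0.463 and tHMG1 at 0.360 lay above the 0.325 of HmgZ and the 0.247 of HmgD. TFAM at 0.296 and polybromo at 0.291 lay below HmgZ but above HmgD. Because HmgD and HmgZ count the same summits, the HMG figures rest largely on a single locus. They also rest on replicate 1: in the list without replicate 1 the medians were 0.0987 per kb for HMG and 0.0624 for Sox genes, and in the list without replicate 2 they were 0.197 and 0.0513, an alternative chosen after seeing the data. By gene, HmgD at 0.0987 and HmgZ at 0.130 lay below the 0.176 of Sox14 in the list without replicate 1. In the list without replicate 2 HmgD at 0.197 and HmgZ at 0.260 lay above the highest Sox gene, Sox15 at 0.187. By strongest pooled signal in the window in the conservative set the order was Sox14, Sox15, Dsp1, Sox102F, SoxN, D, HmgD with HmgZ, and Sox100B. The peaks that place Sox15, Dsp1 and Sox100B lay nearest to starts of RpS23, CG9921 and dco. The peak beside the Dsp1 start had 99.8, and Sox15 had no conservative summit within 500 bp of its own start. The replicate values of Sox14 and Sox15 overlapped, as did those of SoxN and D and those of D and HmgD, and so these neighbours do not differ beyond the spread between replicates. By replicate mean SoxN (47.7), D (49.8) and HmgD (50.1) came in the reverse order. The replicate values of the other neighbours in the order did not overlap, apart from HmgD and HmgZ, which share the peak. The place of HmgD and HmgZ depended on the peak set. In the other thresholded set, and among ranked peaks at an IDR of at most 0.05, their 106 put them just above SoxN and D. In the list of replicate 1 alone their strongest signal was 91.3, above the 62.0 of Sox102F, and in that of replicate 2 alone it was 30.2, below the 53.8 of SoxN. These values belong to different peaks, neither of them conservative. The 91.3 is that of the summit at lncRNA:CR44749, and the 30.2 that of a summit 270 bp upstream of an HmgZ start. The conservative peak of 89.4 had replicate signals of 62.1 and 38.0. Sox15 and Sox14 also changed places in the list of replicate 1, at 226 and 223.

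**Figure D3:**
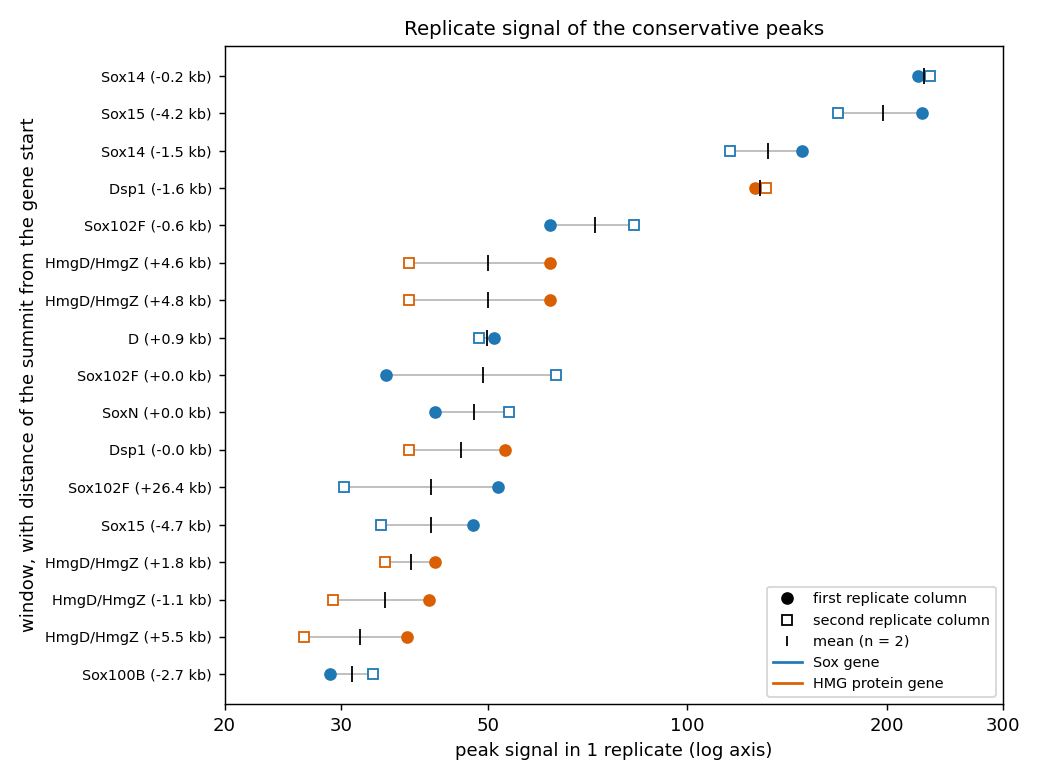
Signal of the 17 distinct conservative peaks in the first (filled circles) and second (open squares) replicate column on a log axis, with the mean of both as a vertical tick; Sox windows are blue and HMG windows orange, and distances are from the start of the gene named (of HmgD for the shared windows). The top 4 peaks, with replicate signals from 116 to 233, are separate from the other 13.

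The 4 highest peaks were the same in both replicate columns. Those 4, at Sox14, PPP1R15, RpS23 and CG9921, had pooled signals from 250.3 to 470.2 and were 175 to 235 bp wide. The other 13 peaks were all 356 bp wide, with pooled signals from 13.5 to 143. Over the conservative set 26.1% of peaks were narrower than 356 bp, with a median signal of 278, against 85.7 for the rest. Each of the 4 narrow peaks was in the thresholded lists of both replicates, and of the 13 others this held for 1, the upstream peak of Sox102F. Of all 17, 5 were in both lists, 7 in that of replicate 1 alone, 2 in that of replicate 2 alone and 3 in neither. The list of replicate 1 is the longer, with 4626 peaks against 3332 for replicate 2. The same split over all conservative peaks is not given here, so these counts are not read as a trait of these genes. The first column was higher at 11 of 17 peaks and at 74.6% of all conservative peaks. All 17 differed by less than 2-fold between the columns, the largest difference being 0.85 on the log2 scale at the start of Sox102F. Conservative peaks were selected for reproducibility between the same 2 replicates, and the share of all conservative peaks within 2-fold is not given here. The agreement is therefore not read as a trait of these genes.

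**Figure D4:**
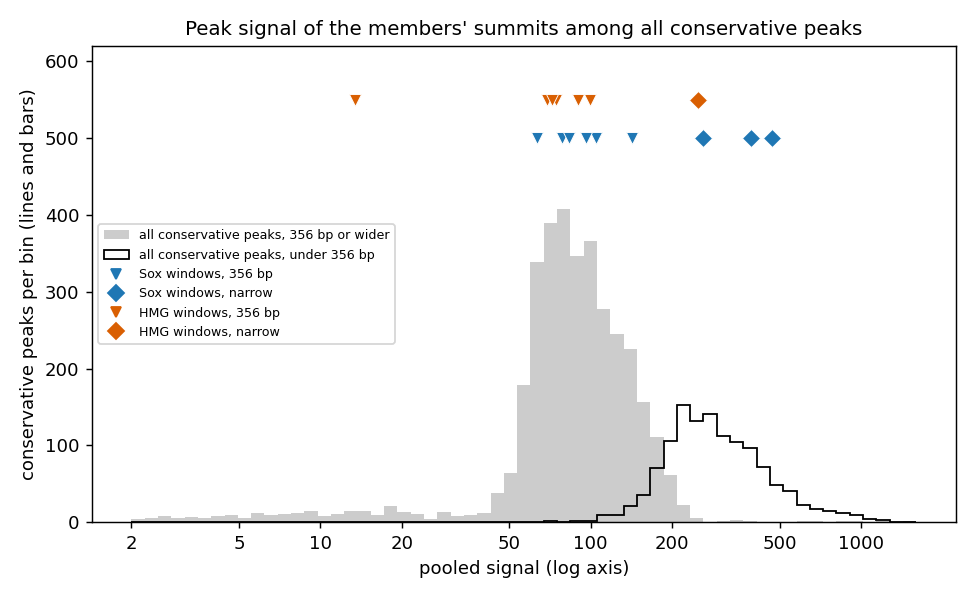
Number of conservative peaks per bin of pooled signal (log axis) for peaks of 356 bp or wider (grey bars) and narrower ones (black line), with the 17 peaks in the members' windows above (triangles, 356 bp wide; diamonds, narrower; blue for Sox, orange for HMG). The 4 diamonds lie at 250.3 or more and the triangles at 143 or less.

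The motif search covered 100 bp to either side of each summit, on both strands. CGATA, which is also part of the DRE, was found at 6 of the 17 summits (35.3%), against 56.4% of all conservative summits. The 6 were those of SoxN, PPP1R15, both RpS23 summits, the upstream Sox102F summit and the stronger CG9921 summit. The DRE was found at 1 of 17, against 17.5% of all, and GGTCACAC at 1 of 17, against 7.26%. Of the cores that HMG boxes are known to bind, ACAATG was found at 1 (D; 8.79% of all summits) and ACAAAG at 3 (the farther RpS23 summit, Sox100B and the summit upstream of HmgD; 11.2% of all). GAGAGAG was found at 2 (6.71% of all). CAGGTAG, which Zelda binds, was at 0 of 17, which allows a share of up to 17.6%, and at 1.07% of all. At HmgD and HmgZ the ACAAAG match was the only one at the 5 shared summits.

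Among 11 other HMG-box genes listed for comparison, 7 had a conservative summit in their window, and 6 had one within 500 bp of their own TSS, beside the 45.2% and 30.8% of protein-coding genes given above. Some of these summits lay nearer to a start of another gene. Counting only summits whose nearest TSS was the gene's own, the number was 4, beside 25.6% of protein-coding genes. Strong peaks lay at the start of pan, the TCF of the Wnt pathway (pooled signal 361, replicate signals 195 and 173, 184 ± 15.3, SD, n = 2), and of polybromo, a chromatin remodelling subunit (326; 193 and 132, 163 ± 43.0, SD, n = 2). The window of TFAM, the mitochondrial HMG protein, held a peak of 410, but at the start of its neighbour EloB, and a weaker one of 109 at its own start, which it shares with the divergent CG5412. The testis genes tHMG1 and tHMG2 shared a peak of 352 whose nearest start was that of the chaperonin gene CCT1. For cic, the Capicua repressor, the strongest of 2 conservative summits had a pooled signal of 81.8 and lay in an intron. bbx itself had 7 summits with pooled signals of up to 99.3, which copies of the locus on the transgene could also affect, and that was not tested. Sox21b, Ssrp, a subunit of the FACT complex, Bap111, a subunit of the Brahma complex, and mael had none.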

How the data were processed

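Peaks were called by the authors against a control alignment on dm6 and compared by IDR, per the deposited text descriptions; no aligner or caller is named there. The deposited peak signal (pooled and per replicate) has no stated scaling. The deposited score is a rescaled IDR. Deposited -log10 values give q and, in the ranked list, the IDR. Conservative peaks were matched to the ranked list for their replicate columns. Depth per sample is unknown.

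Peak ends lay within the chromosomes of genome release 6, from which sequence was read (NCBI), and genes came from Ensembl release 115 without transposable elements. Summits were counted from each gene's first base to its last and 5 kb upstream. Positions are 1-based. Window counting recovered 200 of 200 planted summits on simulated positions. Means and SDs are over the replicate columns (n = 2), with no test. Intervals cover counting error only.

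The members and lists were chosen with earlier results of these data known. Named genes were the members, other HMG-box genes, known partners of SoxN, D and Dsp1, and genes whose start is nearest to a summit. The gene listed as dalao is Bap111 in the annotation. Alternatives were other peak sets, IDR bounds, single replicates, merged peaks, upstream distances and ways of assigning summits. Software: Matplotlib 3.10.9, SciPy 1.17.1, pandas 2.3.3 and NumPy 2.4.6 on Python 3.11.15.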

Additional observations from a re-analysis of the deposited data

How the results depend on the processing

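Of the Sox genes, 6 of 7 had a summit in the conservative set, and between 4 and 6 did under every alternative but one: with summits inside the gene only, the count was 3. Between 2 and 3 abundant HMG protein genes had one under all alternatives. The 17 distinct summits became 8 at an IDR of at most 0.001, 9 inside the genes only, 11 when the nearest TSS had to be the gene's own and 6 within 500 bp of its TSS. With a single replicate's list they were between 10 (without replicate 1) and 14 (without replicate 2). The share of protein-coding genes with a summit, 45.2%, became 50.1% with the series' other thresholded set, 54.2% and 33.5% with ranked peaks at an IDR of at most 0.05 and 0.001, 14.7% inside the gene only, 34.7% and 53.7% with 1 and 10 kb upstream, 25.6% by nearest TSS, 30.8% within 500 bp, and 36.7% to 44.6% with a single replicate's list. D had no summit without replicate 1 and SoxN none without replicate 2; Sox100B had none in either case. Sox21a had none under any alternative. With the other thresholded set the strongest pooled signal was 106 in place of 89.4 for HmgD and HmgZ and the same value for the other 7 genes; merged peaks changed it for none of the 9. No paired analysis was possible because there is 1 group. Depth is unknown, so the weaker peaks cannot be ranked by their precision.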

Other observations

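Among known partners of SoxN and D in the nervous system, 3 of 6 genes had a conservative summit in their window, near the 45.2% of all protein-coding genes and the 58.7% of those with the longest windows. Those 3 were vvl, Dr and nub, each with a summit within 500 bp of its own start and with signals below the median of the set. The POU-domain gene vvl had a pooled signal of 84.2 with replicate signals of 64.3 and 26.8 (45.5 ± 26.5, SD, n = 2). The homeobox gene Dr had 76.8 at the summit 125 bp upstream of its start, and the POU-domain gene nub had 53.5 at an inner start. Neither vnd nor ind, the homeobox genes that pattern the neuroectoderm, had one, nor had pdm2. Ranked summits at an IDR of at most 0.05 were found at vnd, with a highest pooled signal of 50.5, and at pdm2, with 50.2, and none at ind.

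Of 6 genes known to work with or beside Dsp1, 4 had a conservative summit. All 6 are among the genes with the longest windows, where the share was 58.7%, so the count is near that background. The corepressor gene gro had a pooled signal of 228 at its start, with replicate signals of 144 and 77.5 (111 ± 47.3, SD, n = 2). The gene psq, whose product binds GAGA sequences, had 8 summits with pooled signals of up to 176, none of them within 500 bp of its own start sites. The window of Trl, the GAGA factor gene, held 2, of which the stronger (148) lay at the start of its neighbour Mgat4a. The window of grh held 4, of up to 95.7. The genes dl and pho had no summit at an IDR of at most 0.05.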
